A study of Rattus norvegicus with 6 samples.

Results

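The genes described here are 34 genes of glycolysis and of the response to low oxygen, in rat pituitary glands kept as organ culture. They were chosen from a fixed list of glucose and lactate transporters, glycolytic enzymes, the hypoxia-inducible factors with the enzymes that control them, and well known targets of those factors. The array annotation gave 32 of the 34 a probe set with that gene's symbol alone, out of 14217 genes so named in the whole series; 19 of them were glycolytic genes and transporters and 13 belonged to the hypoxia group. Gapdh and Pkm were each listed only on a probe set shared with other symbols and have no value here. The 32 genes had 46 probe sets, and a gene stands for the probe set with the highest mean unless stated.

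Transcript levels were measured on 1 one-colour array per sample. There were 3 control samples and 3 samples given 10 nM GnRH (gonadotropin-releasing hormone, the hypothalamic peptide that acts on the LH- and FSH-producing gonadotropes). All 6 came from Rattus norvegicus pituitary organ culture, a preparation that keeps hormone cells, folliculostellate cells, vessels and any attached posterior lobe together. The sources used here do not give the strain, sex or age of the rats, what the controls received, the length of treatment or the oxygen supply of the cultures. No label says that the samples came from separate cultures or animals, so p-values reflect only the scatter among these samples. Apart from the division of the controls described below, that scatter may be technical.

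Glycolysis splits glucose into pyruvate in a preparatory phase that spends ATP and a payoff phase that makes it; lactate dehydrogenase then turns pyruvate into lactate and restores NAD+. Hypoxia-inducible factors (HIFs) are transcription factors whose alpha subunits are hydroxylated and degraded when oxygen is plentiful. When oxygen is short they accumulate and switch on glucose transporters, most glycolytic enzymes and genes for vessel growth, mitochondrial turnover and acid handling. Much of that control is at the level of the HIF protein, which an array of transcripts does not measure.

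The arrays had medians of 64.5 to 67.0 on the linear intensity scale. Gnrhr, the GnRH receptor, served as a check of the treatment and had log2 intensities of 7.85, 7.78 and 8.16 in controls 1, 2 and 3 against 8.78, 9.45 and 8.94 with GnRH. Control 3 stood apart from the other controls: Xist, the RNA of the inactive X, had 9.77 in control 3 and 9.16 to 9.73 with GnRH, but only 3.91 and 3.66 in the other controls. Eif2s3y, a Y-linked gene, divided the arrays in the opposite way, with 6.48 and 6.56 against 2.76 in control 3 and 2.06 to 2.42 with GnRH. Each control is therefore shown on its own below. A comparison of GnRH with controls 1 and 2 alone also compares arrays of high with arrays of low Xist, and these cannot be told apart. The test against all controls shares this in part, because controls 1 and 2 had low Xist and every GnRH array had high Xist. Any difference of control 3 from controls 1 and 2 follows the same division.

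None of the 32 genes passed the test between GnRH and control. The test was limma's moderated test over all 31042 probe sets, with Benjamini-Hochberg adjustment and a threshold of 0.05, at which 0.464% of all probe sets passed (0.422% higher and 0.0419% lower with GnRH). Ndrg1 came nearest, with a level 1.42-fold lower with GnRH, and the glycolytic enzyme gene Pfkl and the HIF subunit gene Epas1 followed on the higher side. At an unadjusted p under 0.05 there were 5 of 32 genes, against 12.3% of all probe sets, so the share was near the background. The log2 fold changes ran from -0.50 to 0.44, and 23 of the 32 lay within 0.2 of 0. Their median was 0.022, with 0.0013 for the glycolytic group and 0.063 for the hypoxia group, against -0.025 over all probe sets and -0.0089 over named genes. In whole-organ RNA, fewer cells of a type and less RNA per cell cannot be told apart.

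**Figure D1:**
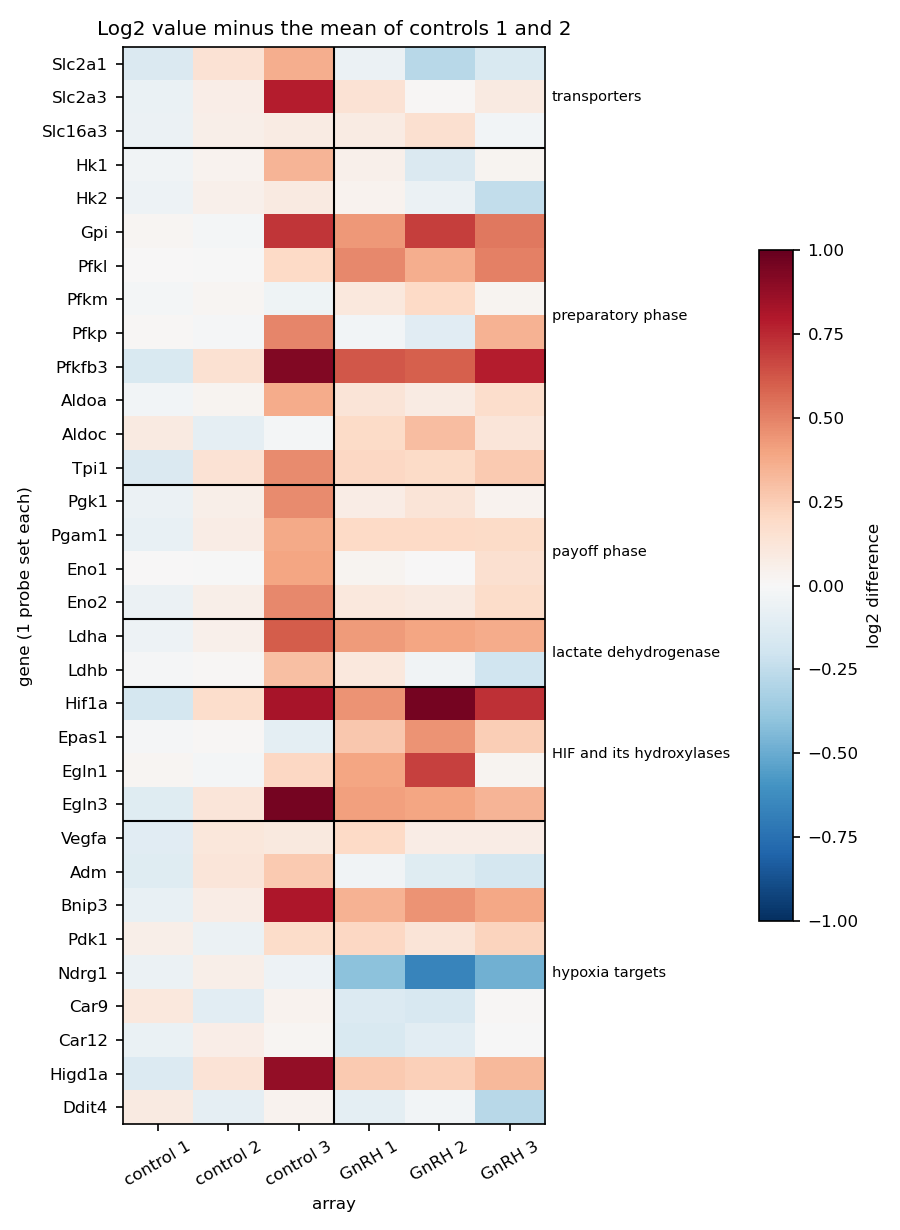
Log2 intensity of each of the 32 genes (rows, grouped by role) on each of the 6 arrays (columns), as the difference from the mean of controls 1 and 2 (colour, from -1 to 1). The control 3 column is red for most glycolytic genes, the GnRH columns are mostly paler, and Ndrg1 is blue in the 3 GnRH columns.

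Ndrg1 encodes a cytoplasmic protein induced by hypoxia, androgens and differentiation, abundant in epithelia and myelinating glia. It had log2 intensities of 9.51, 9.62 and 9.51 in controls against 9.15, 8.90 and 9.08 with GnRH. All GnRH arrays lay below all controls, and control 3 lay between the other controls. The difference was -0.50 ± 0.09 (SE, 3 against 3 arrays; limma adjusted p = 0.0546), just outside the threshold. Its dimmer probe set ran the same way without passing, at -0.20 ± 0.09, with 7.85, 7.99 and 7.81 against 7.69, 7.71 and 7.65. Ndrg1 was the sole gene of the 32 with all GnRH arrays below all controls, a pattern held by 9.62% of all probe sets.

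Ndrg1 was past the threshold in 4 of 17 alternative analyses. These were the fits without dim probe sets (limma adjusted p = 0.0441), with robust variances (0.0453), with array weights (0.00431) and without control 3 (-0.52, 0.0128). The marker sums of folliculostellate and stem-like cells and of the posterior lobe and glia were also lower with GnRH. The summed linear intensity of 9 folliculostellate and stem-like markers was 2382 to 2787 in controls and 1927 to 2192 with GnRH, and that of 7 posterior-lobe and glial markers was 1017 to 1298 against 678 to 939. Gfap, the astrocyte intermediate filament gene, stands in both lists and had 7.92, 8.97 and 8.94 in controls against 7.69, 6.47 and 5.76 with GnRH on the log2 scale. Without Gfap the sums were 2110 to 2297 against 1838 to 2058 for the first list, and 773 to 795 against 624 to 800 for the second, where the groups then overlapped. Not every marker had a lower level: Nefl, a neurofilament gene of the second list, had all GnRH arrays above all controls (0.45 ± 0.13), and S100b and Slc1a3 of the first list had differences of 0.15 and 0.20 with overlapping groups. None of the markers in either list passed the test, and the part of these cells in the Ndrg1 value was not tested. The marker sums of endothelium, macrophages and leukocytes, fibroblasts and pericytes, red blood cells and hormone cells had overlapping groups.

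Glucose enters cells through facilitative transporters. Slc2a1, the gene of the widely expressed GLUT1, had 9.57, 9.86 and 10.08 in controls against 9.65, 9.44 and 9.56 with GnRH, a difference of -0.28 ± 0.13 (limma adjusted p = 0.404). The groups overlapped, and control 3 was the highest of the 6 arrays. Slc2a3, the gene of the high-affinity GLUT3 known from neurons, had 7.05, 7.18 and 7.90 against 7.26, 7.12 and 7.20. Control 3 stood 0.64 above the next array, while the other 5 arrays spanned 7.05 to 7.26. On its dimmer probe set control 3 was also the highest, but by only 0.075. Slc16a3, which encodes the lactate exporter MCT4, ranged from 7.16 to 7.38 with no separation of the groups.

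In the preparatory phase, 3 of 10 genes had every GnRH array above every control, as did Epas1 in the hypoxia group, so that 4 of 32 genes had this pattern, against 7.06% of all probe sets. Dim genes hold it less often: 535 of 8800 named genes with a mean log2 intensity under 7. At 7 to 8 it was 423 of 3299 and at 8 to 9 it was 193 of 1407, the range of these 4 genes. Pfkl, the liver-type subunit of phosphofructokinase, which catalyses the committed step of glycolysis, had 8.68, 8.66 and 8.87 in controls against 9.15, 9.04 and 9.17 with GnRH. The difference was 0.38 ± 0.09, or 1.30-fold (limma adjusted p = 0.131). Control 3 was the highest control, 0.20 above the mean of the others. For the muscle-type subunit gene Pfkm the values were 7.85, 7.90 and 7.83 against 7.98, 8.08 and 7.90 (0.13 ± 0.09), and the groups were barely apart. Both other Pfkm probe sets had overlapping groups, with differences of 0.30 ± 0.12 and -0.072 ± 0.09. The platelet-type subunit gene Pfkp did not separate, with 9.12, 9.09 and 9.60 against 9.07, 8.99 and 9.45.

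Aldoc, the aldolase isozyme best known from brain, was the third of these genes. It had 8.66, 8.48 and 8.55 in controls against 8.76, 8.88 and 8.69 with GnRH (0.21 ± 0.09, limma adjusted p = 0.396). Aldoa, the muscle and general isozyme, had almost equal group means, with 11.24, 11.29 and 11.64 against 11.39, 11.34 and 11.44. In Aldoa the GnRH arrays lay above controls 1 and 2 and below control 3, whereas in Aldoc they lay above all 3.

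Gpi encodes the enzyme that turns glucose 6-phosphate into fructose 6-phosphate. Controls 1, 2 and 3 had 9.68, 9.63 and 10.37, and the GnRH arrays 10.09, 10.35 and 10.18. The GnRH arrays were close to control 3 and well above the other controls, so the difference over all controls was 0.32 ± 0.17 (limma adjusted p = 0.498) and that from controls 1 and 2 was 0.55 ± 0.10 (0.0091).

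Pfkfb3 makes fructose 2,6-bisphosphate, the strongest activator of phosphofructokinase, and is itself a HIF target. It had the same shape, with 7.93, 8.24 and 9.01 against 8.70, 8.68 and 8.87 on its brightest probe set (0.36 ± 0.22, limma adjusted p = 0.536). Another probe set gave 7.12, 7.28 and 7.31 against 7.51, 7.80 and 7.45, with all GnRH arrays above all controls and without a high control 3 (0.35 ± 0.11, limma adjusted p = 0.239). The third ranged from 7.45 to 7.66 with no separation. The 3 probe sets of this gene thus disagree on control 3.

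Hk1 and Hk2, the hexokinases that trap glucose in the cell, had differences of -0.13 ± 0.11 and -0.12 ± 0.10, with overlapping groups. Tpi1, the triose phosphate isomerase gene, had 0.062 ± 0.14. Control 3 was the highest array in all 3 of these genes, by 0.28, 0.038 and 0.21.

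The 4 payoff-phase genes measured had log2 fold changes from -0.076 to 0.070. Pgk1, which makes the first ATP of this phase, had 10.21, 10.33 and 10.74 in controls against 10.35, 10.40 and 10.31 with GnRH. Control 3 stood 0.34 above every other array, and the remaining 5 arrays spanned 10.21 to 10.40. Pgam1 (phosphoglycerate mutase), Eno1 (the general enolase) and Eno2 (the enolase of neurons and neuroendocrine cells) had differences of 0.070, -0.066 and -0.032, each with an SE of 0.12 to 0.13. In each of them control 3 was again the highest array, by 0.18, 0.23 and 0.30.

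Ldha encodes the lactate dehydrogenase subunit that favours lactate production. Controls 1, 2 and 3 had 11.24, 11.34 and 11.89, and the GnRH arrays 11.71, 11.68 and 11.66. The 3 GnRH arrays spanned 0.049 and lay between the other controls and control 3. The difference from all controls was 0.20 ± 0.15 (limma adjusted p = 0.631), and from controls 1 and 2 it was 0.40 ± 0.08 (0.0207). For Ldhb, which encodes the heart-type subunit, the groups overlapped, with 7.59, 7.61 and 7.90 against 7.71, 7.56 and 7.40 (-0.14 ± 0.12).

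**Figure D2:**
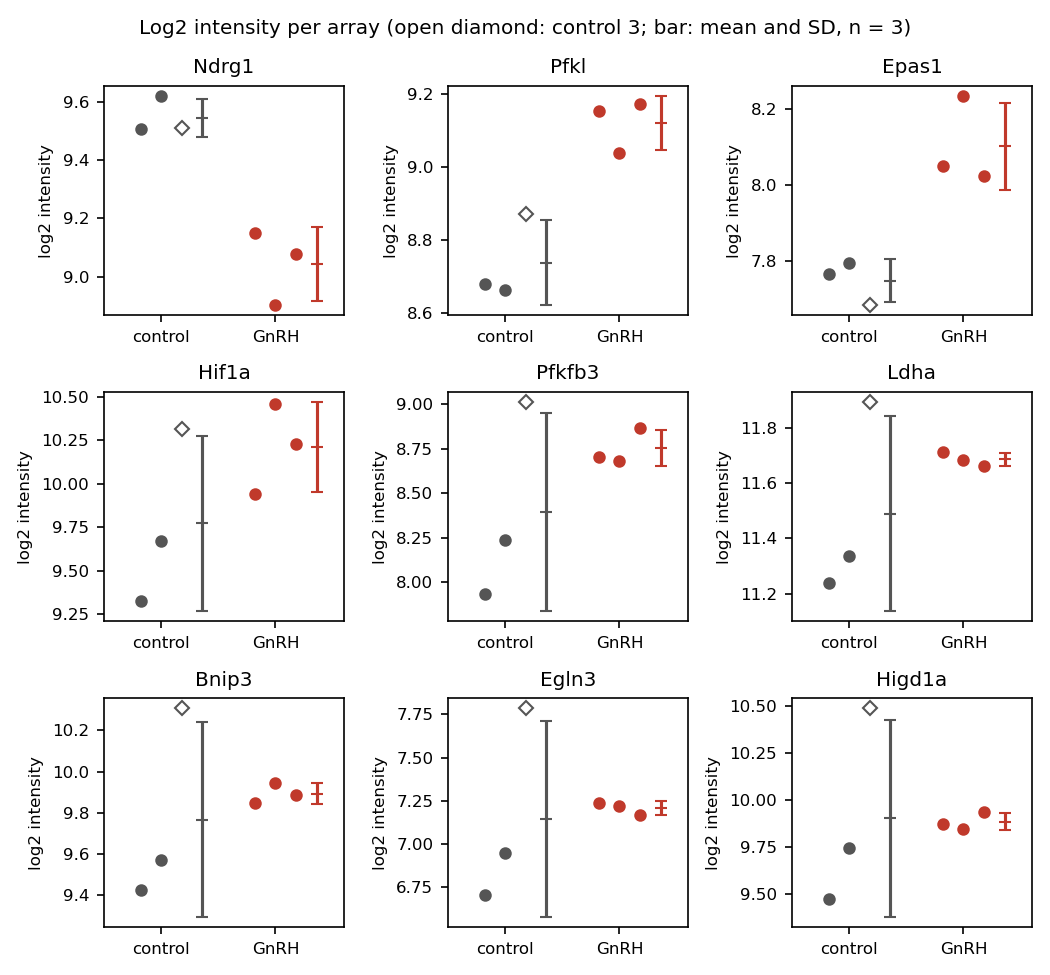
Log2 intensity (y axis) of 9 of the genes on each array, controls in grey and GnRH in red, with control 3 as an open diamond and bars for the mean ± SD of 3 arrays. In Ndrg1, Pfkl and Epas1 the groups do not overlap, whereas in Ldha, Bnip3, Egln3 and Higd1a the GnRH arrays lie between the low controls 1 and 2 and the high control 3. Each panel has its own y range.

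Of the HIF system, all 4 genes had a log2 fold change above 0 and none passed. Epas1, the gene of HIF-2 alpha, which is prominent in endothelium, had 7.77, 7.79 and 7.68 in controls against 8.05, 8.23 and 8.02 with GnRH. All GnRH arrays lay above all controls, and control 3 was the lowest of the 6. The difference was 0.35 ± 0.09, or 1.28-fold (limma adjusted p = 0.155). The dimmer Epas1 probe set overlapped, with 6.83, 6.99 and 6.69 against 6.88, 7.03 and 6.98. The summed intensity of 10 endothelial markers was 1094 to 1200 in controls and 1182 to 1335 with GnRH, with overlapping groups. Only 5 of the 10 had a log2 fold change above 0, and their median was 0.011. Plvap was the only marker of the list with all GnRH arrays above all controls (0.40 ± 0.13). The part of endothelium in the Epas1 value was not tested.

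Hif1a, the gene of HIF-1 alpha, had 9.32, 9.67 and 10.32 in controls against 9.94, 10.46 and 10.23 with GnRH. Control 3 lay among the GnRH arrays and the other controls below all of them. The difference was 0.44 ± 0.22 over all controls (limma adjusted p = 0.451) and 0.71 ± 0.15 over controls 1 and 2 (0.0188). Egln1 and Egln3 encode prolyl hydroxylases that mark HIF alpha subunits for degradation, and Egln3 is itself strongly HIF-induced. Egln3 had 6.70, 6.95 and 7.78 against 7.24, 7.22 and 7.17, so control 3 stood 0.55 above every other array and the GnRH arrays lay in between. Egln1 had 6.96 to 7.18 in controls and 7.37 and 7.66 on GnRH arrays 1 and 2, while GnRH array 3 lay among the controls, and its other probe set had a difference of -0.043.

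The hypoxia targets did not move as a block. Bnip3, which promotes removal of mitochondria, had 9.42, 9.57 and 10.31 in controls against 9.84, 9.95 and 9.88 with GnRH. Higd1a, a small mitochondrial protein gene induced by HIF-1, had 9.48, 9.75 and 10.49 against 9.87, 9.85 and 9.94. In both, the GnRH arrays lay close together, spanning 0.10 and 0.086, above controls 1 and 2 and below control 3.

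The remaining targets had overlapping groups. Vegfa, the angiogenic growth factor gene, ranged from 8.89 to 9.20, and its dimmer probe set had a difference of 0.30 ± 0.14 without passing. Adm, the gene of the vasodilator adrenomedullin, had 7.42, 7.66 and 7.81 against 7.51, 7.42 and 7.37 (-0.20 ± 0.11). Pdk1, which shuts off pyruvate dehydrogenase, ranged from 6.83 to 7.12 on its brighter probe set. Its dimmer one had 5.31, 5.76 and 6.75 in controls and 5.88 to 6.49 with GnRH, with control 3 highest. Car9 and Car12, the membrane carbonic anhydrases of acidic tissue, and Ddit4, an inhibitor of mTORC1 signalling, had differences of -0.11, -0.093 and -0.15, each with overlapping groups. The 6 Car9 values spanned only 5.94 to 6.20, near the median of the mean log2 intensities over all probe sets (6.04). Without detection calls, it could not be judged whether Car9 was expressed.

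Set against each control on its own, the comparison changed direction with the control used. The GnRH mean was above control 1 in 25 of 32 genes, above control 2 in 24 and above control 3 in 7, with medians of the difference of 0.14, 0.078 and -0.23. The 3 comparisons share the GnRH arrays. Over all 14217 named genes the counts were 6927, 6914 and 6868, and the medians were -0.0067, -0.0069 and -0.0061. For the 19 glycolytic genes and transporters the medians were 0.14, 0.075 and -0.25, and for the 13 hypoxia genes 0.23, 0.14 and -0.13. Bright genes had the same directions. Among the 711 named genes with a mean log2 intensity of 9 or above, the counts were 544, 488 and 182. Their medians were 0.18, 0.12 and -0.11. Of the 15 genes of the list in that range the counts were 13, 13 and 1, with medians of 0.23, 0.080 and -0.33.

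Without control 3, 7 genes were higher with GnRH and 1 was lower, by limma with adjustment over all probe sets. The higher ones were Gpi, Pfkl, Pfkfb3, Ldha, Hif1a, Egln3 and Bnip3, at log2 fold changes from 0.38 to 0.71, and the lower one was Ndrg1. Of all probe sets, 4.95% were called higher and 2.49% lower in that comparison. The share called higher grew with brightness, to 19.7% of the 711 named genes with a mean log2 intensity of 9 or above; of the 15 genes of the list in that range, 4 were called higher (26.7%). With control 3 as the one control, a fit in which that lone array is assumed to vary like the GnRH arrays, Slc2a3 (-0.70 ± 0.11, limma adjusted p = 0.0301) and Higd1a (-0.60 ± 0.11, 0.0479) were lower with GnRH, a direction in which 0.155% of all probe sets were called, and none was higher.

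**Figure D3:**
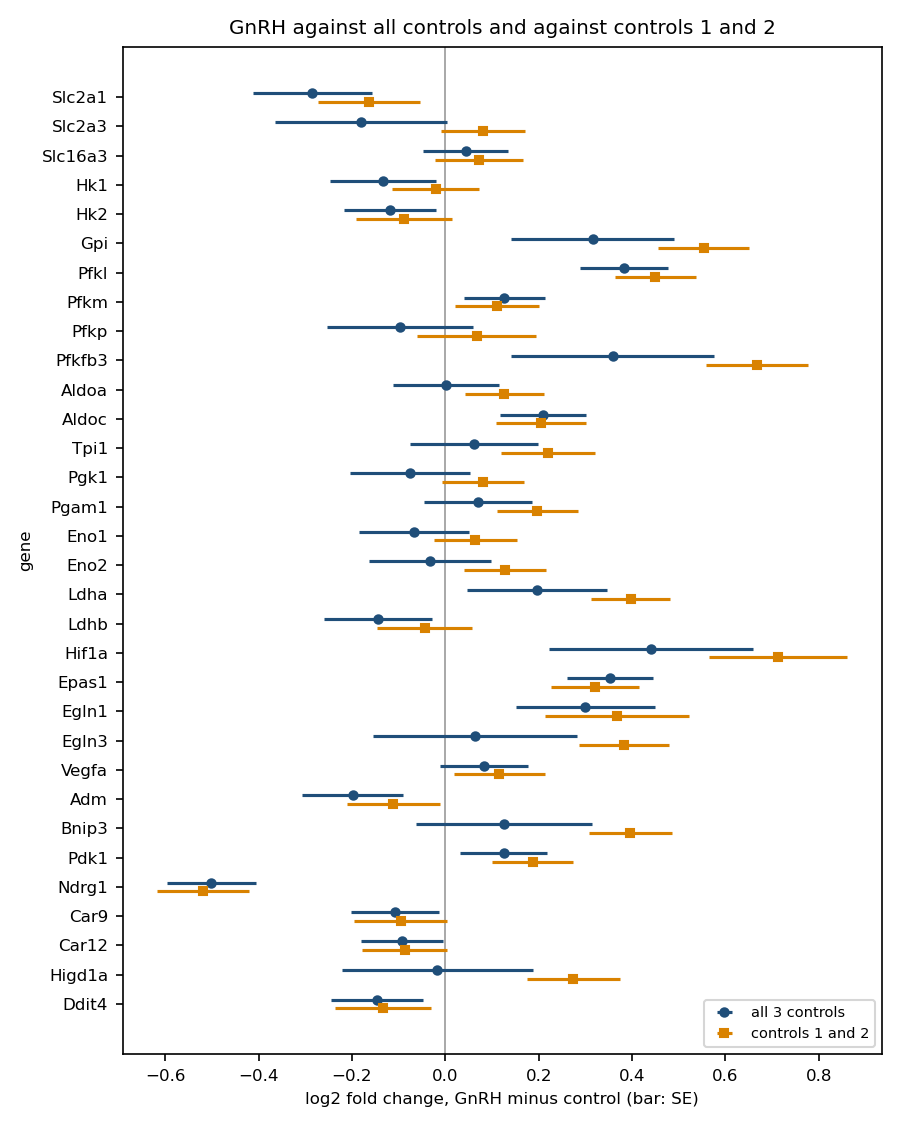
Log2 fold change, GnRH minus control (x axis; bars are SE), for each of the 32 genes with all 3 controls (blue circles) and with controls 1 and 2 (orange squares). Leaving out control 3 moves Gpi from 0.32 to 0.55, Ldha from 0.20 to 0.40 and Higd1a from -0.018 to 0.27, while Ndrg1 stays near -0.50.

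Control 3 was the highest of the 6 arrays in 19 of the 32 genes (59.4%), against 18.1% of all probe sets, and above both other controls in 24 (75%), against 33.2%. The share above both controls rose with brightness. Control 3 was above both in 50.4% of named genes at a mean log2 intensity of 7 to 8. At 8 to 9 it was above both in 69.2%, and at 9 or above in 78.5%, near the share of the list. Among glycolytic genes and transporters it was the highest in 15 of 19, and among hypoxia genes in 4 of 13. The median of control 3 minus the mean of controls 1 and 2 was 0.35 over the list, 0.38 in the glycolytic group and 0.19 in the hypoxia group, against -0.020 over all named genes. The largest differences were in Egln3 (0.96), Pfkfb3 (0.93), Higd1a (0.88), Hif1a (0.82), Bnip3 (0.81), Slc2a3 (0.78), Gpi (0.71) and Ldha (0.60), or 1.94-fold in Egln3 and 1.52-fold in Ldha. With 1 array these differences have no replicate and no test.

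Brightness went along with this pattern. Control 3 had a wider spread of values than the other controls, with 5.25 log2 units between its 5th and 95th percentiles against 4.98 and 5.04. The GnRH arrays were about as wide as control 3, at 5.17, 5.19 and 5.27, so controls 1 and 2 had the narrowest spread. Bright probe sets tended to be higher on control 3 than on controls 1 and 2. Among the 711 named genes with a mean log2 intensity of 9 or above, control 3 was the highest array in 48.8% and its median difference from the other controls was 0.25. Of the 15 genes of the list in that range it was the highest in 12, with a median difference of 0.47. In the 17 genes below 9 it was the highest in 7 (41.2%), with 0.19. Among named genes control 3 was the highest in 28.3% at 7 to 8 and in 41.7% at 8 to 9, with medians of 0.050 and 0.18. With quantile normalization the median difference over the list was 0.18, and with cyclic loess 0.14, with control 3 highest in 19 and 16 genes.

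**Figure D4:**
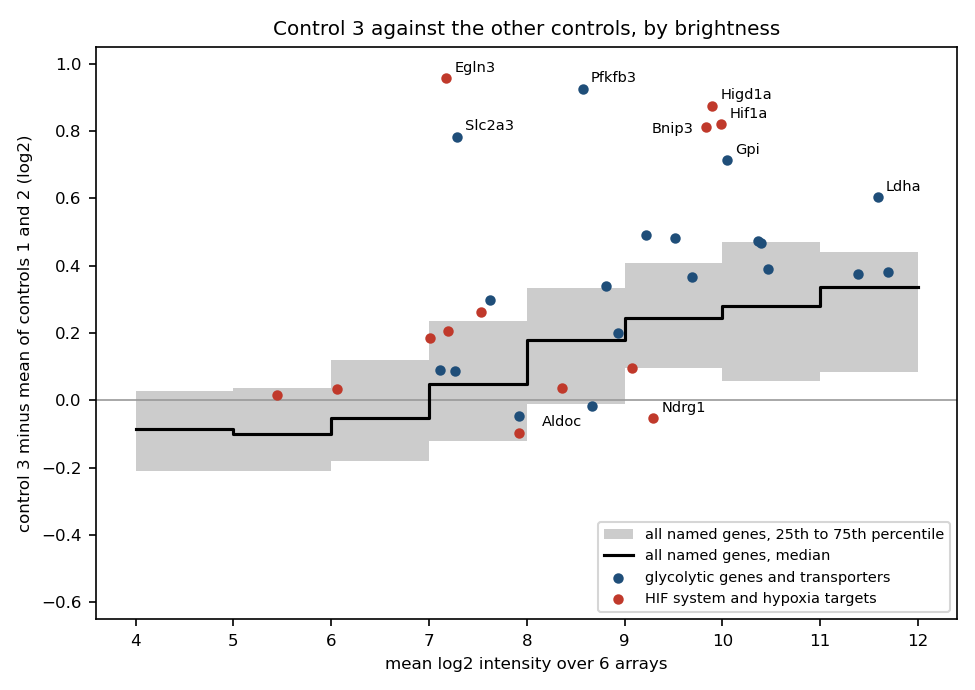
Control 3 minus the mean of controls 1 and 2 (y axis, log2) against mean log2 intensity over 6 arrays (x axis) for the 32 genes, over the median and the 25th to 75th percentiles of all named genes in bins of 1 log2 unit (stepped line and band). Of the 32 genes, 14 lie above the band of their bin, among them Egln3, Pfkfb3, Slc2a3, Higd1a, Hif1a, Bnip3, Gpi and Ldha, and 2 lie below it, Ndrg1 and, by a small margin, Aldoc.

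In 10 of the 32 genes every GnRH array lay above controls 1 and 2 and below control 3, against 5.32% of all probe sets. The share of this pattern among genes of like brightness was not computed. Control 3 was the highest array more often in bright genes (48.8% of the 711 at 9 or above) than over all probe sets. Hbb, the beta globin gene, was lower in control 3 than in the other controls, with 11.38, 11.17 and 10.09 in controls 1, 2 and 3 against 10.77, 11.11 and 10.40 with GnRH. The summed linear intensity of 3 red blood cell markers was 1319 in control 3, 2540 and 2922 in the other controls and 1559 to 2478 with GnRH, the lowest GnRH sum being that of array 3. In the other markers of the list, Alas2 and Slc4a1, control 3 differed from the other controls by only -0.15 and -0.015, and GnRH array 3 was the lowest. Hbb, by far the brightest of the 3 markers, made up most of the sum. Markers of other cells also set control 3 apart, with differences from the other controls of -1.09 in Tshb, -0.90 in Cxcl12, -0.84 in Fshb and 0.83 in Slc1a3. The part of red blood cells or of other cells in the control 3 values was not tested.

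The core hypoxia response element to which HIFs bind is ACGTG or GCGTG, and the promoters of 29 of the 32 genes, from 250 bases before to 50 after the start, were taken from RefSeq (build GRCr8); Slc2a3, Pgk1 and Ndrg1 were not among them. Read on both strands, where CACGTG counts as a match on each, ACGTG was present in 16 of 29 promoters (55.2%). It was present in 19.3% of all 33469 promoters, in 23.4% of the 13192 promoters of genes named on the array, and in 25.6% of the 6416 promoters whose GC content was at least the median of these genes (63.3%). GCGTG was present in 14 of 29 (48.3%), against 44.5% of the promoters of genes named on the array. The list was chosen to hold glycolytic genes and known HIF targets, so a high share of ACGTG may come from that choice of genes. The windows of 80 bases below are upstream of the start in the 5 genes where control 3 exceeded the other controls by over 0.6 and ACGTG lay upstream. Capitals mark ACGTG or its reverse complement.
Pfkfb3, chr17:71944853-71944932, plus strand: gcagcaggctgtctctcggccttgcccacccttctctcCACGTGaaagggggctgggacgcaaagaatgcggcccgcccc
Ldha, chr1:106507972-106508051, plus strand: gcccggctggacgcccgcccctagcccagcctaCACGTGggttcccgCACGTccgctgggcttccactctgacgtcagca
Hif1a, chr6:98359659-98359738, plus strand: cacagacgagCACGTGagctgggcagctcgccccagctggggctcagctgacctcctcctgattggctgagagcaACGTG
Bnip3, chr1:203155019-203155098, minus strand: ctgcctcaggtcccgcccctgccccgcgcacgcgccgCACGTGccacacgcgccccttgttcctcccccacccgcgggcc
Higd1a, chr8:130401039-130401118, minus strand: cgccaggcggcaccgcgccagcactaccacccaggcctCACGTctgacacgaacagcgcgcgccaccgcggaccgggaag
Each window is on the strand of its gene. Of the other genes with so large a difference, Gpi had its one ACGTG downstream of the start and Egln3 had neither motif in its 300 bases. Epas1 and Vegfa also had neither. ACGTG lay upstream as well in Slc2a1, Pgam1 and Eno2, where control 3 differed from the other controls by 0.37, 0.38 and 0.48. It did so too in Pfkm, Aldoc and Ddit4, at -0.047, -0.016 and 0.036. The windows were picked by the control 3 values, and whether the motif goes with a high control 3 was not tested. A match describes letters in a window and is not a bound site.

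Against 0.464% of all probe sets, other genes of the same pathways gave 1 call among 94 measured. It was Bhlhe41 (DEC2), a clock repressor and HIF target, with 6.94, 6.95 and 6.85 in controls against 7.39, 7.81 and 7.87 with GnRH, a rise of 0.77 ± 0.12 (limma adjusted p = 0.0314). The other 31 measured genes of the further hypoxia list did not pass, and the list's median was -0.019. Hmox1, the haem-degrading enzyme gene, and Anxa2, a membrane-binding annexin gene, had -0.55 ± 0.15 and -0.46 ± 0.12 (limma adjusted p = 0.187 and 0.170), with GnRH arrays below all controls. Ankrd37, a HIF target, had 6.91, 6.82 and 8.28 against 7.56, 8.47 and 8.02, the shape seen in Hif1a.

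The 16 further glycolytic genes, among them isozymes of other tissues, had a median of -0.025 and 0 calls by limma, with 2 at an unadjusted p under 0.05. Minpp1, an inositol polyphosphate phosphatase that also acts on bisphosphoglycerate, had the smallest p, at 0.27 ± 0.08 (limma adjusted p = 0.232). Of 14 genes of pyruvate entry into mitochondria none passed either. Pdk4, the starvation-responsive pyruvate dehydrogenase kinase gene, came nearest, with 7.35, 7.17 and 7.24 against 7.79, 7.48 and 7.97, all GnRH arrays above all controls (0.50 ± 0.12, limma adjusted p = 0.138).

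The 18 citric acid cycle genes had 15 log2 fold changes above 0, a median of 0.086 and 0 calls, with 2 at an unadjusted p under 0.05. Control 3 was the highest array in 10 of them, and its median difference from the other controls was 0.17. Among the 1407 named genes with a mean log2 intensity of 8 to 9, where this list has its median (8.13), 906 had a log2 fold change above 0, control 3 was the highest array in 41.7% and its median difference was 0.18. Sdhb, a succinate dehydrogenase subunit gene, had 8.40, 8.27 and 9.22 in controls against 8.98, 9.20 and 9.10 with GnRH (0.46 ± 0.20, limma adjusted p = 0.401). The 6 pentose phosphate and 8 glycogen genes had medians of -0.065 and -0.082, with 0 calls and 0 at an unadjusted p under 0.05.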

How the data were processed

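The authors deposited 1 linear intensity per probe set and sample, computed with RMA per the submitters' processing notes. Software and filters are not given in the sources at hand. No detection calls come with the values, so absence of a transcript could not be judged. Groups follow the sample titles. Values were turned into log2 with no pseudocount and fitted with limma 3.58.1 in R 4.3.3 (lmFit, eBayes, 2-sided, no covariate, no filter) over all 31042 probe sets, with Benjamini-Hochberg adjustment and a threshold of 0.05. The number of arrays limits the precision. The fit was tested on simulated data. Symbols came from the array annotation, brought up to date by gene ID from the RefSeq table of GRCr8. Every gene of the list may be named; values on each array were to be given for genes at an unadjusted p under 0.05, with separated groups or with control 3 over 0.5 log2 outside the other arrays, and up to 4 genes of each further list by smallest p. The genes, lists and tests were chosen with earlier results of these data known. Further lists of pathway genes and cell markers were written from general knowledge; lists were described by counts and medians only. Alternatives covered scaling, dim probe sets, variance models, weights per array, a block for the replicate number, arrays left out and other probe sets of a gene. Deviations of same-numbered samples from their group means correlated at 0.16, -0.049 and 0.16, so the numbers were not taken to pair the samples.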

Additional observations from a re-analysis of the deposited data

How the results depend on the processing

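None of the 32 genes passed with median centring, quantile normalization, cyclic loess, a trend on intensity, the replicate block, the averaged probe sets of each gene or the probe set with the smallest p-value. The count of genes past the threshold was 1 without dim probe sets, 1 with robust variances, 6 with array weights, 2 with control 3 as the one control, and 0 to 8 with 1 array left out (8 without control 3, 0 otherwise). Among all probe sets it was 144, with 90 under quantile normalization, 93 under cyclic loess, 3020 with array weights, 265 with control 3 as the one control, 215 with the replicate block and 20 to 2309 with 1 array left out. Array weights gave control 3 the lowest weight (0.30).

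The median log2 fold change over the list (0.022) was 0.040 with median centring, -0.041 with quantile normalization, -0.036 with cyclic loess, 0.044 without dim probe sets, 0.073 with array weights, 0.047 with the smallest p-value, -0.23 with control 3 as the one control and -0.081 to 0.12 with 1 array left out. For glycolytic genes it was -0.053 with quantile normalization, -0.090 with cyclic loess, 0.057 with array weights, -0.25 with control 3 as the one control and -0.089 to 0.11 with 1 array left out. For hypoxia genes it was 0.0099, 0.023, 0.13, -0.13 and -0.060 to 0.19 in the same order. The scalings moved the median of all probe sets by under 0.1. The median of control 3 minus the other controls was 0.40 with median centring, 0.18 with quantile normalization and 0.14 with cyclic loess; these alternatives were chosen after the data were seen.

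Several genes changed sign. With control 3 as the one control the log2 fold change was -0.014 for Slc16a3, -0.16 for Gpi, -0.26 for Pfkfb3, -0.25 for Aldoa and Tpi1, -0.18 for Pgam1, -0.21 for Ldha, -0.11 for Hif1a, -0.58 for Egln3 and -0.42 for Bnip3. With array weights it was 0.021 for Pfkp, 0.011 for Pgk1, 0.030 for Eno1, 0.057 for Eno2 and 0.13 for Higd1a. Quantile normalization gave -0.053 for Aldoa and -0.028 for Pgam1, and cyclic loess -0.090, -0.016 and -0.025 for Aldoa, Tpi1 and Pgam1. Higd1a was at 0.016 with the mean of its probe sets and at 0.050 with the smallest p-value. With 1 array left out the ranges were -0.34 to 0.080 for Slc2a3, -0.0010 to 0.094 for Slc16a3, -0.24 to 0.067 for Pfkp, -0.073 to 0.13 for Aldoa, -0.089 to 0.22 for Tpi1, -0.18 to 0.080 for Pgk1, -0.030 to 0.20 for Pgam1, -0.13 to 0.064 for Eno1, -0.14 to 0.13 for Eno2, -0.16 to 0.38 for Egln3, -0.046 to 0.40 for Bnip3 and -0.23 to 0.27 for Higd1a. Ndrg1, Pfkl and Epas1 kept their sign in every alternative, as did other genes of the list, among them Slc2a1, Hk2 and Aldoc. The causes of these changes were not tested. Car12, whose probe set is dim, has no value without dim probe sets.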
